A study of Drosophila melanogaster with 2 samples.

Results

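The genes described here are 10 members of the Drosophila nuclear receptor family, chosen by name: EcR, usp, ftz-f1, Hr3, Hr4, Hr38, Hr39, Hr78, Hr96 and Hnf4. The choice was made with earlier results of these data known. All 10 genes had at least 1 probe set that the array annotation assigns to a single gene, 17 probe sets in all, out of 11982 genes measured in this way. They were read on 2 Affymetrix arrays of the Drosophila Genome 2.0 design, on which a set of short oligonucleotide probes reports each transcript, mostly from its 3′ part. Both arrays form 1 group: S2 cells, an established fly cell line of embryonic origin that resembles macrophage-like blood cells, soaked with double-stranded RNA against GFP for 8 days in 2 rounds of 4 days. GFP is a jellyfish protein with no counterpart in the fly genome, and the labels name no hormone added to the cells. The labels call the treatments duplicates without saying whether the cultures were kept apart, so the spread between the arrays may be technical. No second condition was analysed here, so the effect of the treatment cannot be measured.

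Nuclear receptors are transcription factors with a DNA-binding domain of zinc fingers and a domain that in many of them binds a small lipid-like ligand. In insects the steroid 20-hydroxyecdysone binds the EcR protein, which works as a pair with the Usp protein, and the pair switches on a cascade of further receptors and transcription factors at each moult and at metamorphosis. In blood cells of the fly, ecdysone is known to prime phagocytosis and immune gene expression.

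A probe set was called detected where its signal, a fluorescence intensity in linear units, lay above a background limit on both arrays. The limit was the 95th percentile of the 125 odorant and gustatory receptor probe sets, 146 on replicate 1 and 136 on replicate 2, and a gene was detected where any of its probe sets was. Over the whole array 38.3% of probe sets and 49.1% of genes were detected. Each signal was set against background probe sets of other genes, and signals were grouped by brightness to describe the spread between the duplicates. Probes differ in their response, so no order of levels among the genes is given. S2 cultures are bulk samples, in which fewer cells expressing a gene and less RNA per cell cannot be told apart. Of 14 markers of macrophage-like blood cells 12 were detected (85.7%, beside 49.1% of all genes), among them the clotting gene Hml at 4509 ± 520 and the extracellular matrix peroxidase gene Pxn at 8028 ± 492 (mean ± SD, n = 2, as for all levels given this way). Of the 2 probe sets of Pxn 1 was detected. The phagocytic receptor gene eater was detected at 231 ± 3.08, while NimC1 (112 ± 21.7), another such gene, and the transcription factor gene gcm (8.98 ± 0.729) were not. Of 6 measured fat body markers 1 was detected (16.7%), and of 8 measured neuron and muscle markers 1 was (12.5%), beside the same 49.1% of all genes. A further 3 fat body and 4 neuron and muscle genes on these lists had no probe set of their own and were not measured. The detected gene of the neuron and muscle list was elav, an RNA-binding protein gene of neurons, at 196 ± 18.2. The synaptic genes nSyb (17.5 ± 8.62) and brp (73.4 ± 6.01) were not detected. These marker lists were chosen with earlier results of the same arrays known, so their shares are no test of the cells' identity.

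Of the 10 nuclear receptor genes 7 were detected, a share of 70%, where 49.1% of all genes were. EcR, usp, ftz-f1, Hr39, Hr78, Hr96 and Hnf4 made up the detected genes, and Hr3, Hr4 and Hr38 were not detected by any probe set. A gene with several probe sets has more ways to pass, and 4 of the 10 members had several, beside 1094 of all 11982 genes. By probe set, 10 of 17 were detected, beside 46.1% of all probe sets with a single gene. No member lay close to the limit on the detected side. The lowest signal of a detected probe set was 2.51 times the limit of its array, and the highest signal of the others was 0.670 times the limit.

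**Figure D1:**
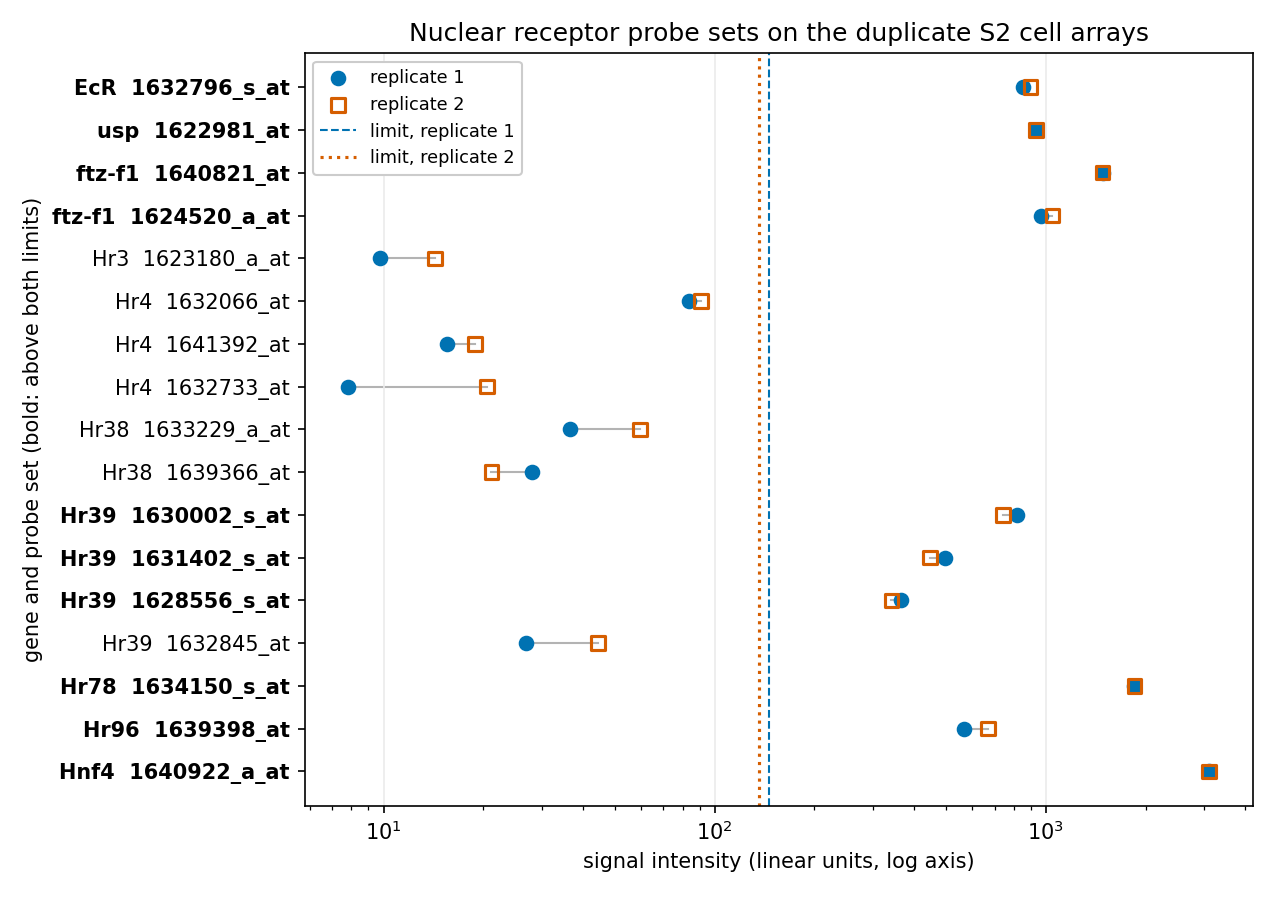
Signal intensity (horizontal log axis, linear units) of each of the 17 probe sets of the 10 nuclear receptor genes, with replicate 1 as filled circles, replicate 2 as open squares and the background limit of each array as a vertical line. The 10 detected probe sets, in bold, sit between 342 and 3116, and the other 7 between 7.79 and 90.9, with no probe set on different sides of the limit on the 2 arrays.

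Both subunits of the ecdysone receptor were detected. EcR, the subunit that binds the hormone, had 1 probe set (1632796_s_at), with a signal of 851 on replicate 1 and 898 on replicate 2. Its partner usp, the fly counterpart of the vertebrate retinoid X receptors, also had 1 probe set (1622981_at), which read 933 on both arrays. The EcR signal was 5.83 and 6.62 times the limit, and that of usp 6.39 and 6.87 times. Neither subunit came near the background range on either array. The suffix _s_at of the EcR probe set marks, in the maker's naming, probes shared by more than one transcript. The reading does not separate the EcR isoforms. The annotation assigns the probe set to EcR alone, but whether its probes also match transcripts of another gene was not analysed here. Hr78 and Hr39 were likewise detected only by probe sets with this suffix.

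Hr38, the fly counterpart of the vertebrate NGFI-B receptors, encodes an alternative partner of Usp and was not detected. Its probe set 1633229_a_at read 36.6 on replicate 1 and 59.6 on replicate 2. The other, 1639366_at, read 28.1 and 21.2. These values lie in the range of the odorant and gustatory receptor probe sets, whose median was 42.8 and 43.5 on the arrays, and the 2 probe sets differed between the arrays in opposite directions.

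Hr3 and Hr4 are receptor genes that ecdysone switches on after the first response genes at the onset of metamorphosis, and neither was detected. The Hr3 protein activates ftz-f1 in the prepupa, and the Hr4 protein restrains the early response genes. Hr3 was read by 1623180_a_at at 9.74 on replicate 1 and 14.3 on replicate 2. For Hr4, probe set 1632066_at read 83.6 and 90.9, above the receptor median on both arrays but at 0.572 and 0.670 times the limit. The other Hr4 probe sets were also under the limit on both arrays, with readings of 15.5 and 18.9 for 1641392_at and of 7.79 and 20.5 for 1632733_at. Measured against the highest of 50 control probe sets that carry protein accessions as names, 85.0 on replicate 1 and 70.3 on replicate 2, the brightest Hr4 probe set lay just below the limit on replicate 1 and above it on replicate 2.

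The gene ftz-f1 encodes a receptor that makes prepupal tissues competent to respond to the later ecdysone pulse and that, in the early embryo, is a cofactor of the segmentation protein Ftz. Both of its probe sets were detected. Probe set 1640821_at read 1486 and 1481, and 1624520_a_at read 966 and 1046. The signals were 10.2 and 10.9 times the limit for the first and 6.62 and 7.71 times for the second.

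Hr39, a close relative of ftz-f1 known for its part in development of the female reproductive glands, had 4 probe sets, and they fell on different sides of the limit. Probe set 1630002_s_at read 815 and 742, 1631402_s_at 496 and 446, and 1628556_s_at 366 and 342. The fourth, 1632845_at, read 27.0 and 44.5 and was not detected. Hr39 was the 1 gene among the 4 members with several probe sets whose probe sets disagreed, beside 27.7% of all genes with several probe sets. The 3 detected Hr39 probe sets carry the suffix _s_at and the undetected one does not. Which transcripts each of them matches was not analysed here.

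Hr78, Hr96 and Hnf4 were detected, each by a single probe set. Hr78, an orphan receptor required for the start of metamorphosis and for growth of the tracheal system, read 1839 on replicate 1 and 1850 on replicate 2 (1634150_s_at), 12.6 and 13.6 times the limit. Hr96, which takes part in the response to xenobiotics and in cholesterol and triglyceride balance, read 565 and 669 (1639398_at), 3.87 and 4.93 times the limit. Hnf4, the counterpart of the mammalian hepatocyte nuclear factor and a regulator of fatty acid breakdown in the larva, read 3116 and 3112 (1640922_a_at), or 21.3 and 22.9 times the limit. In the fly Hnf4 is best known from fat body, gut and oenocytes. Among the fat body markers Lsp2 was detected, at 188 ± 45.0, while Fbp1 (15.8 ± 0.277) and Fbp2 (16.2 ± 7.36) were not. The 3 yolk protein genes in that list ranged from 5.65 to 45.0 in mean signal.

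The type of probe set went with detection on the array as a whole. Among probe sets of 1 gene, 41.7% of those with the plain suffix _at were detected, 59.7% of those with _a_at and 68.9% of those with _s_at. Among the nuclear receptors the counts were 3 of 8, 2 of 4 and 5 of 5. The part of probe design in the receptors' detection was not tested.

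The duplicates were close for every detected member. The SD of the 2 arrays ranged from 0.0571% to 11.8% of the mean signal, with 933 ± 0.533 for usp, 3114 ± 3.13 for Hnf4 and 617 ± 73.1 for Hr96. In log2 units of replicate 2 over replicate 1, the differences of the 10 detected probe sets ran from -0.15 for Hr39 to 0.24 for Hr96, with a median of -0.0016. Of these 10 probe sets, 4 were higher on replicate 2, beside 49.5% of all detected probe sets. The 3 detected Hr39 probe sets were all lower on replicate 2, at -0.14, -0.15 and -0.10.

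These differences were set beside the spread of all detected probe sets in 4 classes of equal number by signal, whose SDs were 0.27, 0.22, 0.21 and 0.21 from dim to bright. Within 1 SD of their class lay 9 of the 10 receptor probe sets, beside 74.6% of all detected probe sets. The exception was Hr96, at 0.24 against an SD of 0.22. With 1 array per duplicate there is no test of a difference. The 7 probe sets that were not detected differed by between -0.41 and 1.40, where the SD of all such probe sets on the array was 1.12. The value of 1.40 belongs to 1632733_at of Hr4, 2.63-fold between signals far below the limit.

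**Figure D2:**
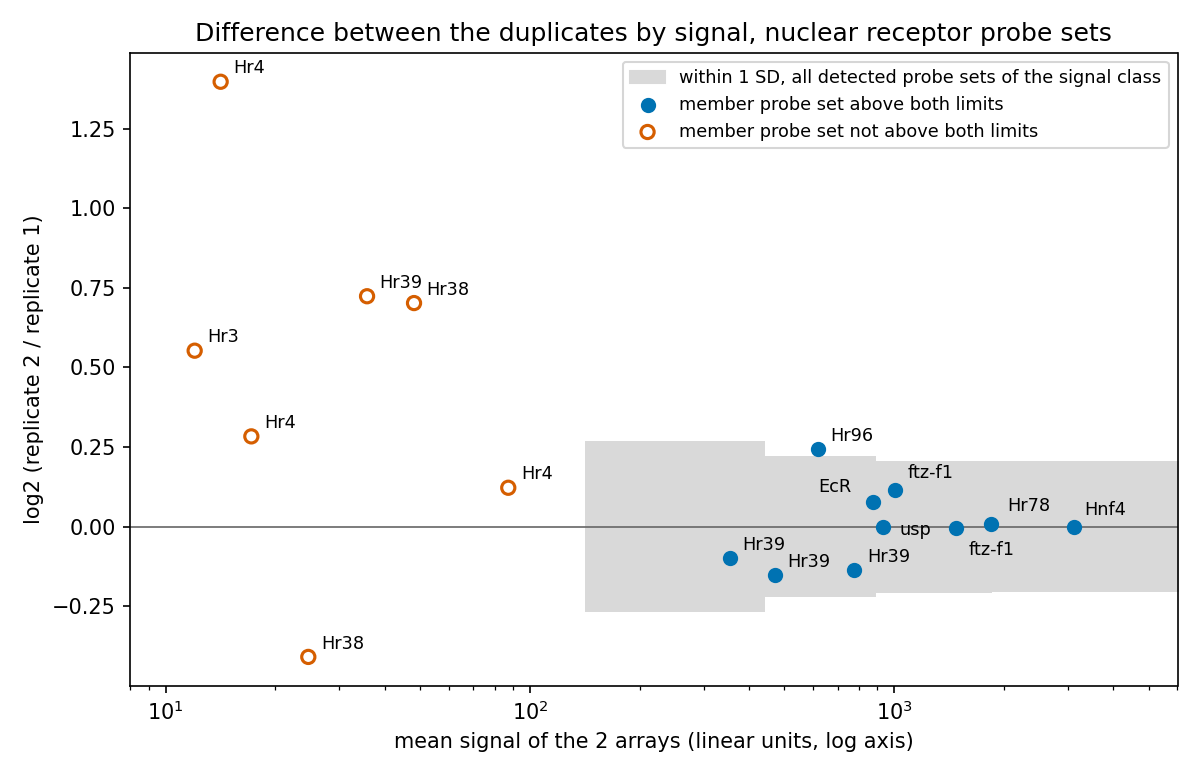
Difference between the duplicates (vertical axis, log2 of replicate 2 over replicate 1) against the mean signal of the 2 arrays (horizontal log axis, linear units) for the 17 nuclear receptor probe sets, with detected ones filled and the others open. Grey shows 1 SD either side of 0 for all detected probe sets of each signal class. Detected probe sets lie between -0.15 and 0.24, and the others spread from -0.41 to 1.40.

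Further nuclear receptor genes of the fly were mostly below the limit. Of 10 measured, 1 was detected, or 10.0% beside 49.1% of all genes. The detected gene was Hr51, a receptor known from neurons of the mushroom body, at 188 on replicate 1 and 336 on replicate 2. ERR, the counterpart of the vertebrate estrogen-related receptors and a regulator of glycolysis, read 95.04 ± 19.6, and Eip78C, an ecdysone-induced receptor, 105 ± 10.3. The remaining 7 were svp, tll, dsf, Hr83, kni, knrl and eg, with means from 3.62 to 73.5. Eip75B, an early ecdysone response receptor, had no probe set of its own and was not analysed here. The division between these genes and the 10 described above was made with earlier results of these arrays known.

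Genes that work around the receptors were read from lists of the pathway. Ecdysone reaches its receptor through the importer Oatp74D, detected at 1014 ± 99.8. The genes for 2 enzymes that inactivate the hormone were not detected, with Cyp18a1 at 127 ± 35.8 and Eo at 20.5 ± 17.9. Cyp18a1 read 101 on replicate 1 and 152 on replicate 2, so that it passed the limit on the second array alone.

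All 12 measured cofactor genes of the receptor were detected (100%, beside 49.1% of all genes). The coactivator gene tai read 485 ± 75.0, the corepressor gene Smr 1861 ± 266 and the histone methyltransferase gene trr 1097 ± 4.80. Most of these cofactors serve many transcription factors besides EcR. The listed genes DOR and Hsp83 were not measured.

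Of 10 measured genes for ecdysone synthesis 3 were detected, or 30.0% beside 49.1% of all genes, and none of the 3 encodes an enzyme of the pathway. They were Npc1a, which moves sterols inside cells, at 1099 ± 20.6, and the zinc finger genes mld at 1347 ± 40.9 and woc at 4216 ± 11.4. Of the 2 probe sets of mld 1 was detected. The 7 measured enzyme genes, nvd, sro, spok, spo, dib, sad and shd, had means between 8.43 and 107 and were not detected. Among them nvd, the first enzyme of the pathway, read 19.5 ± 6.75 and sro 8.43 ± 3.04. The brightest, shd, read 107 on both arrays, below the limit but above the highest of the control probe sets on each array. Another listed enzyme gene, phm, was not matched to a probe set of its own and was not measured.

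Of 13 measured genes induced by ecdysone in other settings 7 were detected, or 53.8%, near the 49.1% of all genes. A further 5 listed genes, Eip74EF, Eip63F-1, Ldh, Eig71Eb and crol, had no probe set of their own and were not measured. The early gene br, a zinc finger transcription factor gene of the metamorphic response, was detected by all 5 of its probe sets, the brightest at 2384 ± 34.2. The methionine sulfoxide reductase gene MsrA, first known as Eip71CD, read 360 ± 43.0, and the amino acid metabolism gene Cth, first known as Eip55E, 2780 ± 62.6. Eip63E, ImpL2, ImpE3 and Kr-h1 were the other detected genes. The late transcription factor gene Eip93F (37.5 ± 0.429) and ImpL1 (22.8 ± 2.18) were not detected, nor were ImpE1, ImpE2, the pupal gene Eig71Ea and the salivary glue gene Sgs3.

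Juvenile hormone acts beside ecdysone through receptors of another protein family, and 2 of 6 measured genes of that pathway were detected, or 33.3% beside 49.1% of all genes. Of the paired receptor genes, gce read 239 ± 17.0 and was detected, and Met, at 97.5 ± 7.47, was not. The juvenile hormone epoxide hydrolase gene Jheh2 was the second detected gene, at 1395 ± 56.6. The synthesis gene jhamt read 3.40 on replicate 1 and 21.2 on replicate 2. Jheh1 and Jheh3, also on this list, were not measured.

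**Figure D3:**
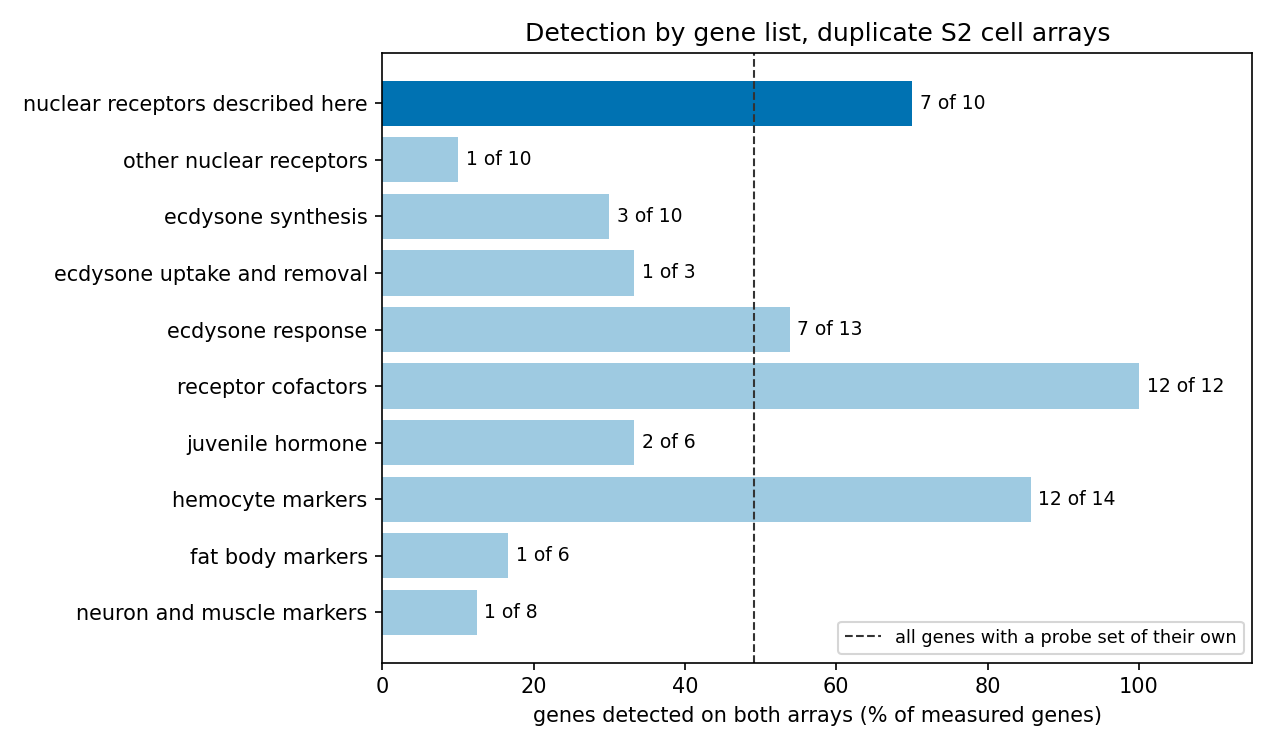
Share of measured genes detected on both arrays (horizontal axis, percent, from 0) for the nuclear receptor genes described here and 9 other gene lists, with counts beside the bars and the share of all genes, 49.1%, as a dashed line. Receptor cofactors (12 of 12), hemocyte markers (12 of 14) and the receptors described here (7 of 10) lie above the line by the widest margins, and the other nuclear receptors (1 of 10) lie below it. The lists were chosen with earlier results of these data known.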

How the data were processed

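Total RNA of S2 cells was amplified from its poly(A) tails and hybridised to 2 arrays, per the labels' protocols, and the arrays were read with an Affymetrix Scanner 3000 and GeneChip Operating Software 1.2, per the series' design text. The values the authors deposited are signal intensities on a linear scale, with 1 value for each probe set on each array. How probes were summarised, and any scaling, is not given in the sources used here. After removal of the highest and lowest 2% of values, the mean signal was 499.73 on replicate 1 and 499.72 on replicate 2, and no further normalization was applied. Intensities are not counts, and the number of arrays limits the precision.

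Of 18952 probe sets, 13647 had 1 gene in the platform annotation, 402 had several and named none, and 4903 had no entry. Symbols were updated through a RefSeq gene table of the release 6 assembly. No probe set named a member together with another gene. Every probe set of each member is reported, and a gene's level in a list is that of its probe set with the highest mean. Signals under 1 were raised to 1 before log2. From each other list the first 3 detected and first 2 undetected genes were named with values; single values or ranges of further genes, and the neighbours of the receptor genes, were chosen after their values were seen. The members and lists were chosen with earlier results of these data known. With 1 group of 2 arrays no test of a condition was possible, and none was run. Calculations used Python 3.11.15, numpy 2.4.6 and pandas 2.3.3, and were tested on simulated data. Alternatives were other limits, every probe set required, single arrays, median scaling, quantile normalization, another floor, and all member probe sets in place of the detected ones.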

Additional observations from a re-analysis of the deposited data

How the results depend on the processing

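The count of 7 detected receptor genes was the same with the 90th and the 99th percentile limits, beside 51.6% and 43.8% of all genes. With the highest of the 50 control probe sets as the limit it was also 7, beside 55.5%. On either array alone it was 7 as well, beside 50.6% of all genes without replicate 1 and 49.7% without replicate 2. It was 6 where all probe sets were required to pass, because Hr39 has 1 probe set below the limit. That setting left 46.6% of all genes detected. It also left 11 receptor cofactor genes, 11 hemocyte markers and 2 ecdysone synthesis genes detected. With the limit from the control probe sets the other nuclear receptors detected numbered 3, with Eip78C and ERR added. The genes for ecdysone uptake and removal numbered 2, with Cyp18a1 added. At the same limit ecdysone synthesis counted 4 with the enzyme gene shd, juvenile hormone 3 with Met and hemocyte markers 13 with NimC1. The uptake and removal list also counted 2 without replicate 1 and 1 without replicate 2. With the 99th percentile limit 1 juvenile hormone gene, 0 fat body markers and 0 neuron and muscle markers were detected; the higher limit is the cause by construction. The median difference between the duplicates over detected receptor probe sets was -0.06 after median scaling, which moved the median of all detected probe sets to -0.06, and 0.0017 after quantile normalization, with 3 and 5 of 10 probe sets higher on replicate 2. With a floor of 16 it was -0.0016, and over all 17 probe sets 0.08, with 10 higher on replicate 2. Of the 64 values for these counts and the median recomputed under other settings, 58 stayed within 1.5 times the value given or, for the median, within 1 SD. No paired analysis was possible because there is 1 group. Genes below the limit may be expressed at levels these arrays do not separate from background.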

Other observations

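The genes next to the receptor genes on the chromosomes, taken from the RefSeq gene table as the nearest protein-coding gene on each side that does not overlap, were also read. Beside the 7 detected receptors 11 of 14 such neighbours were detected, and beside the 3 that were not detected 3 of 6 were, where 49.1% of all genes were detected. The groups are small, and the difference between them was not tested. Both neighbours were detected for ftz-f1, Hr78, Hr96 and Hnf4, and also for Hr4, which itself was not detected. EcR lies between Ars2, detected at 1339 ± 148, and Cyp6w1, which read 52.6 ± 11.4 and was not. Around Hr3 neither neighbour was detected, with CG34221 at 45.3 ± 15.1 and the histidine decarboxylase gene Hdc at 7.06 ± 6.47. The neighbours of Hr4 were CG3587, at 379 ± 34.8, and east, at 917 ± 19.6. The gene east is also a neighbour of usp, so that a detected and an undetected receptor gene lie on either side of 1 detected gene. Of the measured genes that overlap a receptor gene in the table, PIG-K with Hr4 (1402 ± 1.61), Actn with usp (983 ± 34.4) and CG2617 with Hr38 (326 ± 12.2) were detected. CG14589 with EcR (88.2 ± 46.2), CG12912 with Hr3 (12.5 ± 3.21) and CatB with Hnf4 (48.1 ± 16.8) were not.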
